A study of Mus musculus with 4 samples.

Results

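Chemokine ligands, the small secreted or membrane-anchored proteins that direct the movement of white blood cells, were examined in intestinal tumor organoids after inhibition of DNA methylation. A probe belonged to the set when its annotated gene symbol began with Ccl, Cxcl or Cx3cl followed by a digit. This selected 29 of the 16446 genes named on the array, measured by 30 of its 23473 probes, since Cxcl16 had a pair of probes. All 29 symbols matched a gene name or an older synonym in RefSeq (GRCm38.p6), where Cxcl4 is now called Pf4 and Cxcl7 is called Ppbp. The organoids came from polyps of ApcMin mice, which carry a mutation of the Wnt pathway gene Apc, and grew in Matrigel in serum-free medium with EGF and noggin. Each of 4 cultures was put on 1 single-color (Cy5) array. The 5-Aza-CdR culture received 1 μM of 5-aza-2'-deoxycytidine, an inhibitor of DNA methylation, for 24 hours, and its RNA was taken 4 days after treatment; its control was an untreated culture. The Dnmt1 knockdown culture carried a lentiviral shRNA against Dnmt1, the enzyme that copies DNA methylation at replication, and its RNA was taken 9 days after infection; its control, labeled as a mock control, carried the empty vector. The infected cultures were selected with puromycin, and the sources used here do not say whether the 4 cultures came from the same mouse.

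Chemokines are named after the spacing of their first cysteines, which are adjacent in the CC group (Ccl), separated by a residue in the CXC group (Cxcl) and separated by several in the CX3C group (Cx3cl1). Each binds receptors on the surface of white blood cells, and the receptor decides which cells follow the gradient. Many chemokine genes are switched on by NF-κB, the transcription factor of inflammation, and a smaller set by interferon. The gut epithelium is itself a source of several of them.

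With 1 array per group, no difference could be set against a spread between replicates, and p-values are left out. Levels are given as the intensities deposited by the authors, in array units in which the median of each array is 25. The log2 ratios come from the spot signals after background correction with an offset of 50 and quantile normalization, and a probe was called where its treated and control arrays differed by 2-fold or more and the brighter array lay above the blank spots. The offset draws the ratios of dim probes toward 0, so the ratio of the deposited intensities, which carries no offset, is given beside it. The 24 spots of each positive control on an array differed by an SD of 0.07 to 0.18 on the log2 scale. These controls were bright, with median signals of 4914 to 25881 above the blank mean, where the chemokine probes reached at most 610. Where several probes named the same gene, their log2 ratios had an SD of 0.21 for 5-Aza-CdR and of 0.15 for Dnmt1 knockdown. Dnmt1 itself, the target of the shRNA, had an intensity of 126 in its control and 71.7 in the knockdown culture, a log2 ratio of -0.68, which did not reach 2-fold. It had 239 in the untreated culture and 368 in the 5-Aza-CdR culture, a log2 ratio of 0.39.

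The labeled tissue was checked against its markers. Of 6 epithelial markers with a named probe, the adhesion gene Tacstd1 (Epcam) had intensities between 2684 and 7627 on the 4 arrays, Cdh1 (E-cadherin) between 968 and 2323 and Vil1 (villin) between 407 and 857. The transcription factors Cdx1 and Cdx2 had 33.7 to 69.9 and 100.5 to 115, and the keratin Krt19 had 3.11 to 6.71, the lowest of them on the control shRNA array. Of 19 markers of immune cells with a named probe, 16 had a value on each array of the first comparison and 13 on each of the second. Their summed intensity was 615 untreated, 830 after 5-Aza-CdR, 782 on the control shRNA array and 728 on the knockdown array. Most of each sum came from 4 genes of myeloid cells, Cd68 (67.5 to 194 over the arrays), Cd14 (169 to 318), Ly6g (105 to 345) and Csf1r (31.9 to 51.9). Cd14 and Ly6g were higher after 5-Aza-CdR without reaching 2-fold, with log2 ratios of 0.61 and 0.51, and had -0.53 and -0.19 in the knockdown. Ptprc, carried by all white blood cells, had at most 4.84, and Cd3g of T cells, Itgam of myeloid cells and Nkg7 of natural killer cells had no value on any array. Other T cell genes had low values on all 4 arrays, namely Cd3d (5.90 to 11.2), Cd4 (4.59 to 9.09) and Cd8a (4.30 to 8.10). Cd79b of B cells did too, at 14.2 to 26.9, while Cd3e had values in the first comparison only, of 1.11 and 1.29. The part of immune cells in the chemokine values was not tested. Of the immune markers, 0 were called in either comparison. Of all probes with a gene symbol, 0.917% were called higher and 0.607% lower with 5-Aza-CdR, and 0.323% and 0.144% with Dnmt1 knockdown. Of 11 markers of mesenchyme, 1 was called, Acta2 of smooth muscle, which had 12.1 untreated and 83.7 after 5-Aza-CdR. The mesenchyme markers summed to 171 untreated and 253 after 5-Aza-CdR, a rise that lay mostly in Acta2. Log2 ratios of the 11 markers in that comparison had a median of -0.0063. The sums were 109 and 136 in the control shRNA and knockdown cultures. The part of mesenchyme in the chemokine values was not tested. In a culture measured in bulk, fewer cells of a type and less RNA per cell cannot be told apart.

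Of the 30 chemokine probes, 22 had a deposited value on all 4 arrays. The untreated control had a value for 25 of them and the 5-Aza-CdR array for 29, and the control shRNA and the Dnmt1 knockdown arrays for 24 each. The untreated control lacked a value for Ccl7, Ccl11, Ccl12, Ccl24 and Cxcl15, and the 5-Aza-CdR array for Ccl24. The control shRNA array lacked Ccl4, Ccl7, Ccl11, Ccl12, Ccl24 and Cxcl4, and the Dnmt1 knockdown array lacked Ccl4, Ccl12, Ccl24, Cxcl4, Cxcl12 and Cxcl15. Ccl24, which attracts eosinophils, was thus without a value on every array. A stricter limit is set by the spots that carry no probe, whose 95th percentile (the empty-spot limit) was an intensity of 2.42 untreated, 1.90 on the 5-Aza-CdR array, 3.37 on the control shRNA array and 4.48 on the knockdown array. Above it on all 4 arrays were 15 probes, namely Ccl2, Ccl5, Ccl6, Ccl8, Ccl17, Ccl20, Ccl22, Ccl25, Cx3cl1, Cxcl5, Cxcl7, Cxcl10, Cxcl11, Cxcl14 and 1 probe of Cxcl16. Ccl7, Ccl11, Ccl12 and Ccl24 were above it on none, and the epithelial marker Krt19 was below it on the control shRNA array.

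**Figure D1:**
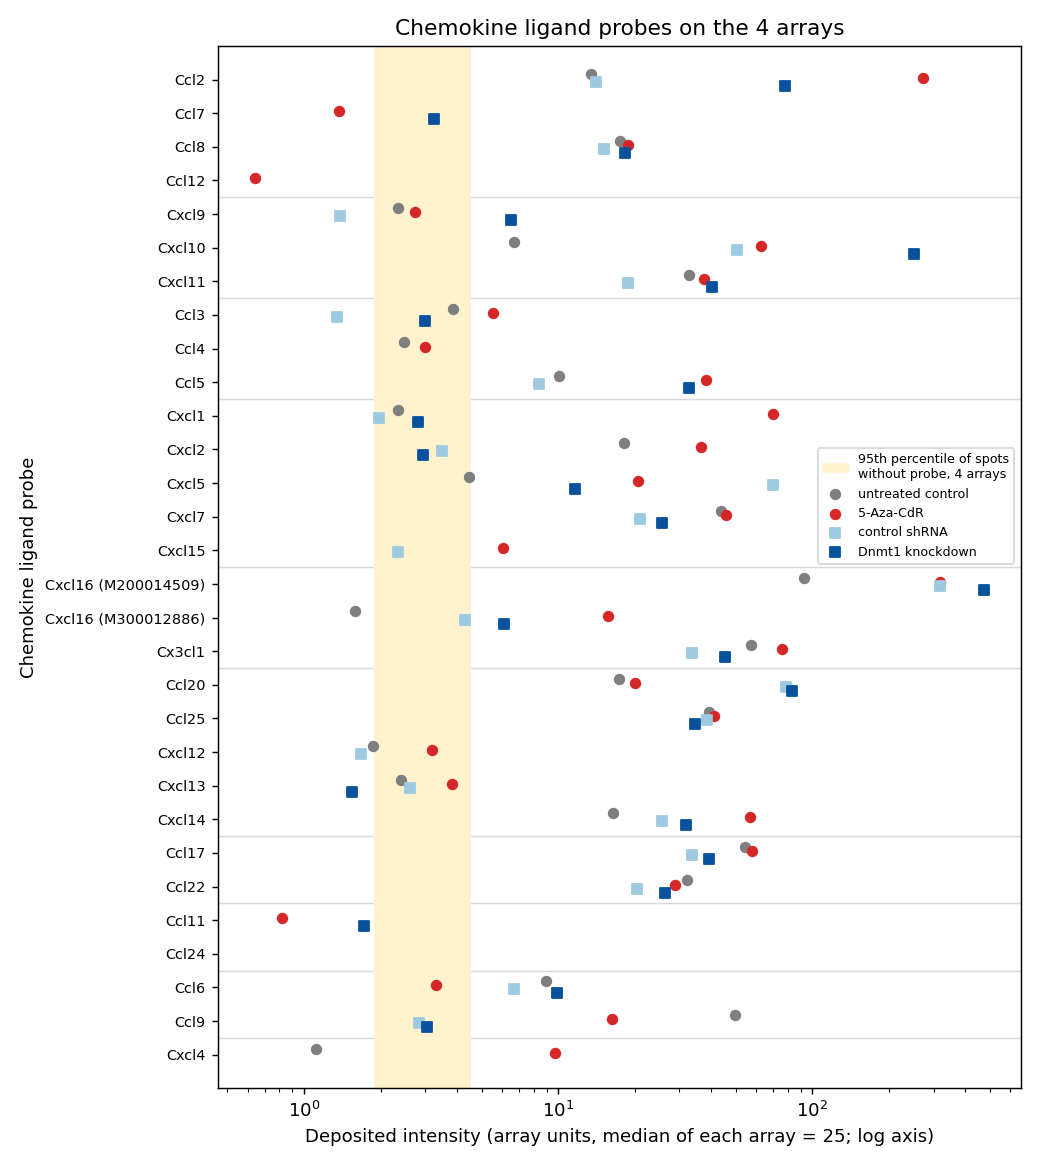
Deposited intensity (log axis, array units) of each chemokine ligand probe on the 4 arrays, 1 point per array, with the probes grouped by role; a missing point is a missing value, and the shaded band spans the empty-spot limits of the 4 arrays (1.90 to 4.48). Ccl2 lay at 13.5 and 14.1 in the controls and at 271 and 77.9 after 5-Aza-CdR and Dnmt1 knockdown, while Ccl25 lay between 34.5 and 40.9 on all arrays.

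After 5-Aza-CdR, 4 of the 29 chemokine probes detected on an array of that comparison were at least 2-fold higher than in the untreated control, and 0 were lower. These were Ccl2, Cxcl1, Cxcl10 and Cxcl16. Of all 15811 probes with a gene symbol tested in the same way, 0.917% were called higher and 0.607% lower. With Dnmt1 knockdown, 2 of 26 detected chemokine probes, Ccl2 and Cxcl10, were higher than in the control shRNA organoids and 1, Cxcl5, was lower, against 0.323% and 0.144% of 14539 probes. The chemokine probes had a median log2 ratio of 0.03 in each comparison, beside -0.0033 over all probes for 5-Aza-CdR and -0.00097 for the knockdown. Their upper quartile was 0.39 after 5-Aza-CdR and 0.14 in the knockdown, where that of all probes was 0.07 in each comparison. In the deposited intensities the median of the chemokine probes was 0.52 for 5-Aza-CdR and 0.40 for the knockdown, beside 0.17 over all probes in each. In the deposited intensities, 11 of the 29 were higher and 2 lower with 5-Aza-CdR, where 6.08% and 2.1% of all probes were called. With Dnmt1 knockdown, 7 of 26 were higher and 1 was lower in the deposited intensities, where 5.93% and 0.811% of all probes were called. For calls in the deposited intensities, here and below, an empty cell took the lowest deposited value of its array. Of the 26 probes detected in both comparisons, Ccl2 and Cxcl10 were higher in both and 0 were lower in both, where 0.187% of all 14461 probes were higher in both. The comparisons shared no array. Across all probes the share of higher calls among those called moved with the processing. It was 60.2% with 5-Aza-CdR but 74.3% in the deposited intensities and 86.9% with median scaling. With Dnmt1 knockdown it was 69.1% but 88.0% in the deposited intensities and 56.2% at an offset of 16. It was 44.7% with plain blank subtraction and 35.4% when the local background of each spot was subtracted. Plain blank subtraction took off the blank mean with no offset, then quantile normalized the arrays and raised low values to a common floor.

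**Figure D2:**
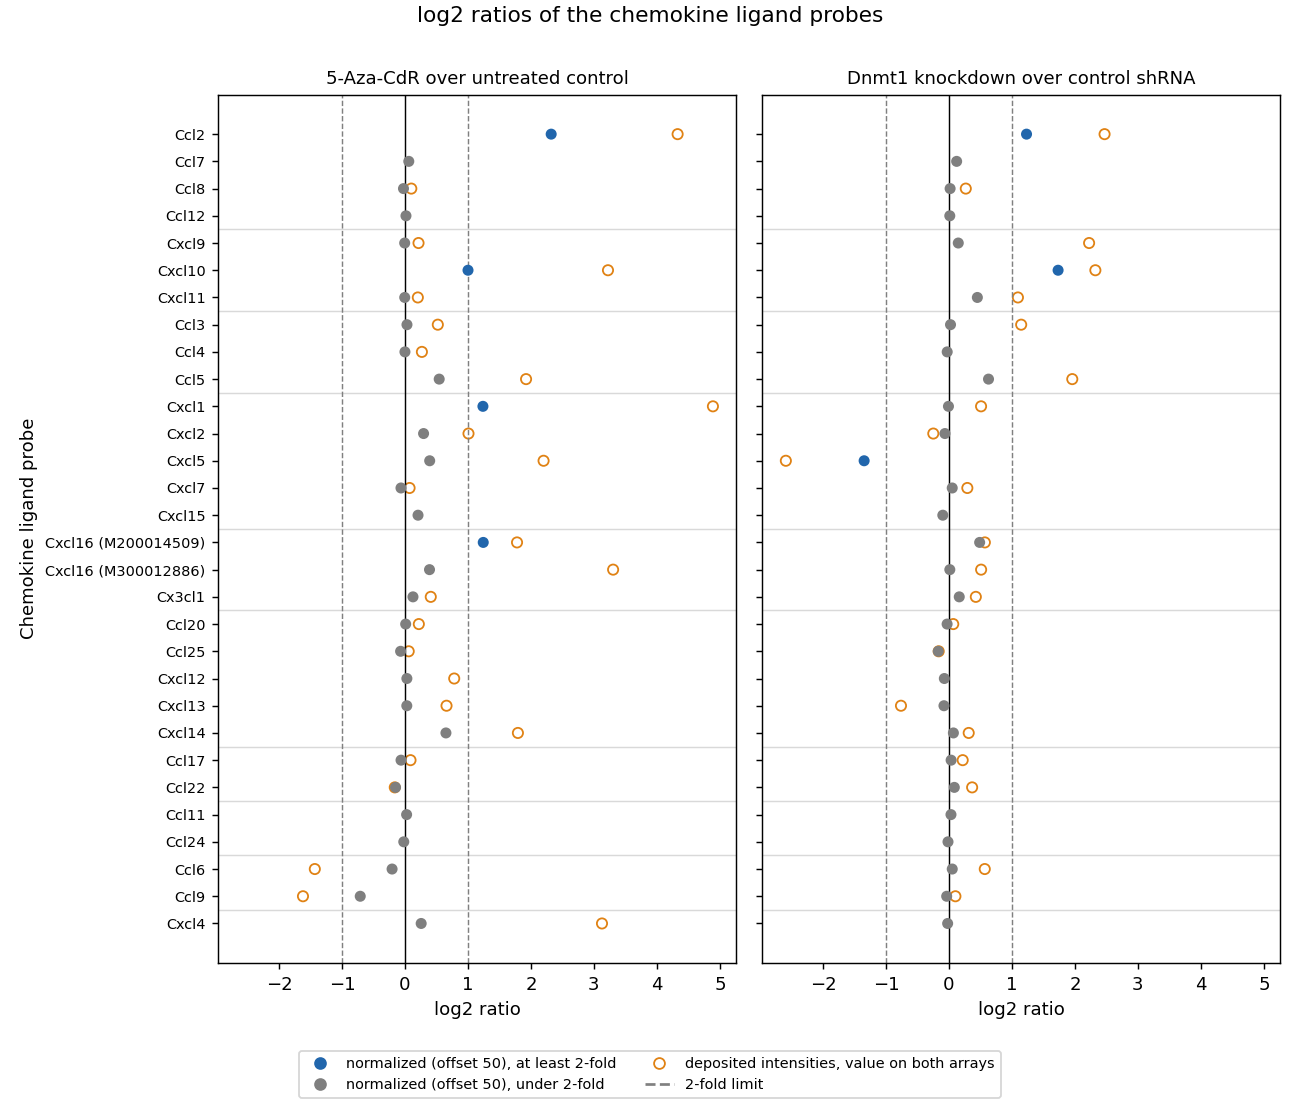
log2 ratio of each chemokine ligand probe in the 2 comparisons, with filled points for the normalized signals (blue where at least 2-fold, gray otherwise), open orange points for the deposited intensities where both arrays had a value, and dashed lines at 2-fold. The open points lie farther from 0 than the filled ones for dim probes, as for Cxcl1 with 5-Aza-CdR (4.89 against 1.24).

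Among the CC chemokines that attract monocytes, Ccl2 changed and its relatives did not reach the 2-fold limit. Ccl2, which draws monocytes from the blood through the receptor Ccr2, had an intensity of 13.5 untreated and 271 after 5-Aza-CdR, then 14.1 in the control shRNA culture and 77.9 in the knockdown culture. The controls were thus close to each other and both treated cultures lay above them. The log2 ratios were 2.32 after 5-Aza-CdR and 1.23 in the knockdown, and the deposited intensities differed 20.1-fold and 5.54-fold. When the local background was subtracted, the second log2 ratio was 0.57 and Ccl2 was no longer called there. Local background was higher around brighter spots (correlation of logs across spots 0.81 to 0.96). Ccl8 had intensities of 17.5, 18.8, 15.2 and 18.3 in the untreated, 5-Aza-CdR, control shRNA and knockdown cultures, a narrow range in which no array stood apart. Ccl7 had no value in either control, 1.37 after 5-Aza-CdR and 3.25 with Dnmt1 knockdown, both below the empty-spot limit. Ccl12 had a value only after 5-Aza-CdR, of 0.64. In RefSeq, Ccl2, Ccl7, Ccl11, Ccl12 and Ccl8 follow each other in that order on chromosome 11, and of these 5 neighbors only Ccl2 was called. In the deposited intensities Ccl7 was called higher with Dnmt1 knockdown as well, where its empty control cell took the lowest value of that array, 1.03.

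The 3 ligands of Cxcr3, the receptor of activated T cells and natural killer cells, are known as interferon-induced chemokines and lie side by side on chromosome 5. Cxcl10 had an intensity of 6.73 untreated and 62.9 after 5-Aza-CdR, then 50.3 in the control shRNA culture and 252 in the knockdown culture. Each treated culture was above its own control, and the control shRNA culture lay well above the untreated one. The log2 ratios were 1.00 with 5-Aza-CdR, the value just inside the 2-fold limit, and 1.73 with Dnmt1 knockdown, with deposited intensities 9.34-fold and 5.01-fold higher. With 75th percentile scaling the first was under the limit at 0.86, and with the local background subtracted it was 0.51. Cxcl9 had 2.35, 2.73, 1.39 and 6.50 in the same order of arrays, so that it was above the empty-spot limit after 5-Aza-CdR and in the knockdown culture and at its highest in the latter. Cxcl11 had 32.6, 37.6, 18.9 and 40.4. Its log2 ratios were 0.00 for 5-Aza-CdR and 0.45 for the knockdown, where the deposited intensity was 2.14-fold higher, and that of Cxcl9 was 0.15 with a deposited ratio of 4.68.

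The promoters of Cxcl10 and Cxcl9 are shown because, of these neighbors, only Cxcl10 was called at the offset of 50. In the deposited intensities and with plain blank subtraction Cxcl9 was also called higher with Dnmt1 knockdown. Its deposited ratio there, 4.68, was near the 5.01 of Cxcl10. A link between promoter and measured values was not tested. Each run is from RefSeq (GRCm38.p6), 250 bases before to 50 after the start of the gene, 5′ to 3′, on the strand of the gene. Cxcl10 lies at chr5:92348840-92349139 and Cxcl9 at chr5:92328030-92328329, both on the minus strand. Capitals mark matches to the interferon-stimulated response element, searched as GAAA, any 2 bases and GAAA again, and to the NF-κB consensus motif of 10 letters, each on both strands.
Cxcl10: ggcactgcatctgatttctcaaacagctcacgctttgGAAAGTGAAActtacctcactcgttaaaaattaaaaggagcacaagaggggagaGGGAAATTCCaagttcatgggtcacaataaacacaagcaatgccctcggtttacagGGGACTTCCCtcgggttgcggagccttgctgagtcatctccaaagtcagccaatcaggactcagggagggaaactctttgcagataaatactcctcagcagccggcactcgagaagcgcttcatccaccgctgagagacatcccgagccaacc
Cxcl9: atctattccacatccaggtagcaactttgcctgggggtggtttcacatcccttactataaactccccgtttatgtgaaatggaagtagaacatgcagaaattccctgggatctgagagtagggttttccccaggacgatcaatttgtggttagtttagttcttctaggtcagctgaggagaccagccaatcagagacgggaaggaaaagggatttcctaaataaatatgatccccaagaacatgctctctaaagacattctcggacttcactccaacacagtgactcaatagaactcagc
In Cxcl10 the first capitals, GAAAGTGAAA, match the interferon element and begin 213 bases before the start. The NF-κB motif matches at GGGAAATTCC and GGGACTTCCC, 159 and 103 bases before the start, with no overlap between the matches. No match to either motif was found in the window of Cxcl9. Of 32851 mouse promoters of the same length, 3.44% held the interferon element and 4.51% the NF-κB motif. Promoters were at hand for 20 of the 29 chemokine genes, with 21 entries, since Ccl25 had a pair of starts. The interferon element was found in Cxcl10 and Cxcl14 and the NF-κB motif in Ccl9, Ccl20, Cxcl1, Cxcl2 and Cxcl10. Ccl2, Ccl4, Ccl5, Ccl7, Ccl11, Ccl24, Cxcl5, Cxcl11 and Cxcl16 had no entry. The promoters of the set held a median of 3 CpG sites, the sequence that Dnmt1 methylates, where the median of all promoters was 7. Cxcl10 and Cxcl1 held 10 each, and the upstream start of Ccl25 held 52, the most of the set.

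Among the inflammatory CC chemokines Ccl3, Ccl4 and Ccl5, Ccl5, which attracts T cells, was above its control in both comparisons without reaching the 2-fold limit. Its intensity was 10.1 untreated and 38.2 after 5-Aza-CdR, with 8.41 in the control shRNA culture and 32.7 in the knockdown culture. The controls lay near each other, as did the treated cultures. The log2 ratios of 0.54 and 0.63 and the deposited ratios of 3.79 and 3.89 were each alike in the 2 comparisons. Ccl5 passed the 2-fold rule in both with the deposited intensities and with plain blank subtraction. Ccl3, made mostly by macrophages, had 3.85, 5.53, 1.35 and 2.99 in the untreated, 5-Aza-CdR, control shRNA and knockdown cultures. Ccl4 had 2.48 and 2.99 on the first pair of arrays and no value on the second. Neither was called. Ccl5, Ccl9, Ccl6, Ccl3 and Ccl4 also follow each other on chromosome 11.

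Among the CXC chemokines that attract neutrophils, Cxcl1 was higher with 5-Aza-CdR and Cxcl5 was lower with Dnmt1 knockdown. Cxcl1, the mouse ligand of Cxcr2 also known as KC, had an intensity of 2.35 untreated and 69.7 after 5-Aza-CdR, then 1.98 in the control shRNA culture and 2.82 in the knockdown culture. The 5-Aza-CdR array alone was above the empty-spot limit. The log2 ratios were 1.24 for 5-Aza-CdR and -0.0074 for the knockdown, and the deposited ratios were 29.7 and 1.42, the former against a control below that limit, so that its size is poorly determined. With the local background subtracted the first log2 ratio was 0.49. Cxcl2, the neighbor and close relative of Cxcl1, had 18.1 untreated, 36.4 after 5-Aza-CdR, 3.48 with the control shRNA and 2.93 in the knockdown culture. Here the first pair of arrays lay above the second, and the log2 ratios were 0.30 and -0.06. Cxcl5, which also binds Cxcr2 and is made by epithelial cells, had 4.47 untreated and 20.6 after 5-Aza-CdR, with 69.8 in the control shRNA culture and 11.6 in the knockdown culture. The highest of the 4 arrays was thus the control shRNA and the lowest the untreated control. The log2 ratios were 0.39 for 5-Aza-CdR and -1.35 for the knockdown, and the deposited intensity was 4.60-fold higher in the first comparison and had a ratio of 0.166 in the second. The fall with Dnmt1 knockdown was called in all settings tried at the 2-fold limit except with the local background subtracted, where the log2 ratio was -0.66. Cxcl7 (Ppbp), known from platelets, had 43.5, 45.8, 21.0 and 25.7 with log2 ratios of -0.06 and 0.05. Cxcl15, described in the mouse lung, had 6.06 after 5-Aza-CdR and 2.35 in the control shRNA and no value on the other arrays.

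The promoters of Cxcl1 and Cxcl2 are printed because these neighbors hold the same motif letters. They lie at chr5:90890995-90891294 and chr5:90903649-90903948 on the plus strand, with the same window and the same use of capitals as above.
Cxcl1: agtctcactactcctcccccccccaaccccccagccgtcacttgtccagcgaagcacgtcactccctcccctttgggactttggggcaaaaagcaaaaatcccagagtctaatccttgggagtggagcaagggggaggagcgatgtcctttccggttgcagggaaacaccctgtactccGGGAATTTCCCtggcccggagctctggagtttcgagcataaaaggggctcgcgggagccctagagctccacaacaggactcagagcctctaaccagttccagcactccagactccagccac
Cxcl2: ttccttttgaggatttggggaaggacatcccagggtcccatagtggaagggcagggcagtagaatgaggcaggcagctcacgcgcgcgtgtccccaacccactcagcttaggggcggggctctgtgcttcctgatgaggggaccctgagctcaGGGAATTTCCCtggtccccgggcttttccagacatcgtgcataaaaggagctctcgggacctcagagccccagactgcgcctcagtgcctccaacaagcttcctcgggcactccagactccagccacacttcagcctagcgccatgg
Both windows hold GGGAATTTCCC, in which matches to the NF-κB motif on opposite strands overlap, beginning 71 bases before the start in Cxcl1 and 97 in Cxcl2. Cxcl5, Cxcl7, Cxcl4, Cxcl15, Cxcl1 and Cxcl2 form a run of neighbors on chromosome 5, and of these 6 genes 1 was higher with 5-Aza-CdR (Cxcl1) and 1 was lower with Dnmt1 knockdown (Cxcl5). In the deposited intensities 5 of them were called higher with 5-Aza-CdR (Cxcl1, Cxcl2, Cxcl4, Cxcl5 and Cxcl15), where 6.08% of all probes were. With plain blank subtraction 4 were (the same without Cxcl2), where 540 of all 15811 probes were. The untreated values of Cxcl1 and Cxcl4 were below the empty-spot limit, and Cxcl15 had none.

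Both chemokines that stand on the cell surface as membrane proteins had values on all 4 arrays. Cxcl16, which binds Cxcr6 on T cells and also takes up oxidized lipoprotein, had an intensity of 92.5 untreated and 318 after 5-Aza-CdR with its probe M200014509, then 319 in the control shRNA culture and 473 in the knockdown culture. The untreated control was the lowest array in the deposited intensities and in the normalized signals. In the latter the control shRNA culture, at 9.22 on the log2 scale, lay above the 5-Aza-CdR culture at 8.66. The log2 ratios of this probe were 1.24 and 0.49. Its other probe, M300012886, had 1.59, 15.7, 4.28 and 6.10 in the same order of arrays, with log2 ratios of 0.39 and 0.01 and deposited ratios of 9.89 and 1.43. Its untreated value was below the empty-spot limit, so the size of the first ratio is poorly determined. With the local background subtracted, the log2 ratio of M200014509 with 5-Aza-CdR turned to -0.34. Cx3cl1, the ligand of Cx3cr1 on monocytes and intestinal macrophages, had 57.3, 76.2, 33.6 and 45.2, with log2 ratios of 0.13 and 0.16.

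The chemokines of mucosal tissue and of steady-state traffic showed no call against their own control. Ccl20, which the gut epithelium uses to attract cells with the receptor Ccr6, had 17.3 untreated, 20.1 after 5-Aza-CdR, 79.0 with the control shRNA and 82.9 in the knockdown culture. The pairs of arrays were far apart and the arrays within a pair were close, with log2 ratios of 0.01 and -0.03. Ccl25, the small intestinal chemokine that binds Ccr9, had 39.3, 40.9, 38.6 and 34.5, all 4 arrays close together, with log2 ratios of -0.07 and -0.17. Cxcl14, made by many epithelia, had 16.5 untreated and 57.1 after 5-Aza-CdR, and 25.5 and 31.7 in the control shRNA and Dnmt1 knockdown organoids. Its log2 ratios were 0.65 and 0.07, and its deposited intensity was 3.47-fold and 1.24-fold that of its control. Cxcl12, the ligand of Cxcr4, and Cxcl13, which guides B cells, stayed at or below 3.81 wherever they had a value. Of the ligands of Ccr4, a receptor of T cells, Ccl17 had 54.4, 57.8, 33.7 and 39.2. Ccl22 had 32.1, 28.8, 20.4 and 26.3. Treated and control arrays were close in both genes. The infected cultures lay below the uninfected ones in these intensities, whose log2 ratio between the controls had a median of -0.49 over all probes, and in the normalized signals Ccl22 did not have that order. Ccl17 and Ccl22 had log2 ratios of -0.06 and -0.15 with 5-Aza-CdR and 0.03 and 0.09 with Dnmt1 knockdown. The 7 probes above the empty-spot limit on all arrays and near 0 in both comparisons (Ccl8, Ccl17, Ccl20, Ccl22, Ccl25, Cx3cl1 and Cxcl7) had log2 ratios between -0.15 and 0.13 with 5-Aza-CdR and between -0.17 and 0.16 with Dnmt1 knockdown, and the sign of several of these small ratios changed with the scaling.

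A pair of CC chemokines known from rodents had lower intensities after 5-Aza-CdR. Ccl9, a ligand of Ccr1, had 49.8 untreated, 16.2 after 5-Aza-CdR, 2.84 with the control shRNA and 3.05 in the knockdown culture. The untreated control was the highest and the infected cultures lay below the empty-spot limit. The log2 ratio with 5-Aza-CdR was -0.71 (0.61-fold), the nearest to the 2-fold limit among the uncalled chemokine probes, with a deposited ratio of 0.326. Ccl9 was called lower at an offset of 16, with plain blank subtraction, with 75th percentile scaling and in the deposited intensities. Ccl6 had 8.92, 3.31, 6.68 and 9.91, with log2 ratios of -0.20 and 0.05 and a deposited ratio of 0.371 with 5-Aza-CdR. Among the remaining members, Cxcl4 (Pf4), a platelet chemokine, had 1.11 untreated and 9.71 after 5-Aza-CdR and no value in the infected cultures, with a log2 ratio of 0.26. Ccl11, an eotaxin, had 0.82 after 5-Aza-CdR and 1.72 with Dnmt1 knockdown. For the probes detected on only 1 array of a comparison, the normalized signals give only a lower bound, which the offset keeps small. Cxcl15 was at least 1.12-fold higher with 5-Aza-CdR. By subtracting the blank mean alone its log2 ratio was 1.54, and it was called higher there and in the deposited intensities.

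**Figure D3:**
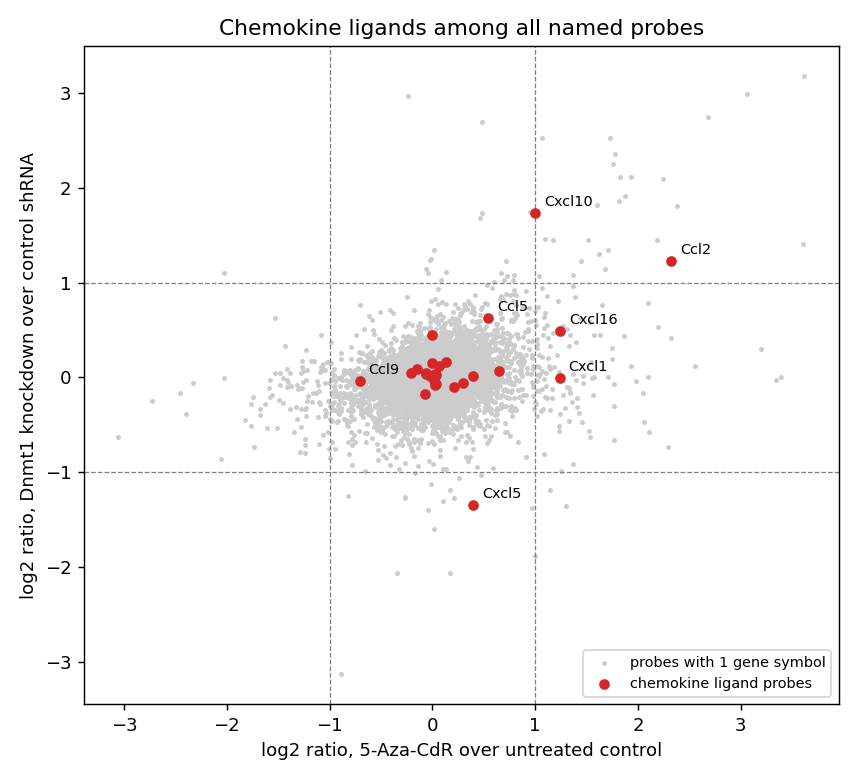
log2 ratio with 5-Aza-CdR (horizontal) against log2 ratio with Dnmt1 knockdown (vertical) for probes with 1 gene symbol detected in both comparisons (gray) and the chemokine ligands among them (red), with dashed lines at 2-fold. Ccl2 and Cxcl10 lie past both lines, Cxcl1 and Cxcl16 past the line of 5-Aza-CdR, and Cxcl5 below the line of Dnmt1 knockdown.

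The controls differed from each other in the chemokines as well. In the control shRNA over the untreated culture, 4 of 26 probes were higher, namely Ccl20, Cxcl5, Cxcl10 and the probe M200014509 of Cxcl16, and 1, Ccl9, was lower, against 3.78% and 3.82% of all probes. The log2 ratios were 1.35 for Ccl20, 1.59 for Cxcl5, 1.19 for Cxcl10, 1.80 for Cxcl16 and -1.02 for Ccl9. That of Ccl2 was 0.12 and that of Ccl5 was 0.02. Infection, vector, selection and days in culture cannot be told apart in this difference. In the deposited intensities 6 chemokine probes were higher and 5 lower between the controls, against 7.13% and 26.5% of all probes.

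The genes around the chemokines were read from lists of receptors, of the NF-κB pathway, of interferon signaling and of enzymes that trim chemokines. Of all probes, 0.917% were called higher and 0.607% lower with 5-Aza-CdR, and 0.323% and 0.144% with Dnmt1 knockdown. Counts of 0 in short lists lie near these shares. Of 22 receptor genes with a named probe, 19 were detected in the first comparison and 15 in the second. With 5-Aza-CdR 0 were called, and with Dnmt1 knockdown 1 was lower, Cmkor1 (Ackr3), which takes up Cxcl12 and Cxcl11 without G protein signaling. Cmkor1 had an intensity of 69.0 untreated and 23.7 after 5-Aza-CdR, then 57.5 in the control shRNA culture and 8.87 in the knockdown culture. Both treated cultures lay below their controls, with log2 ratios of -0.82 and -1.25. The median log2 ratio of the receptors was -0.02 in the first comparison and -0.0026 in the second. Cxcr6, the receptor of Cxcl16, had no value on any array. Cxcr3, the receptor of Cxcl10, had a value of 1.18 in the untreated culture alone, and Ccr2, the receptor of Ccl2, had at most 3.41. The symbol Ccr4 is also an older name of Noct in RefSeq, so the values of its probe, which is counted among the 22, are not described.

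Of the NF-κB pathway and its cytokine targets, 0 of 25 detected genes were called after 5-Aza-CdR and 0 of 26 in the knockdown, and the list medians were 0.05 and 0.02. In the deposited intensities 3 and 1 of these genes were at least 2-fold higher, where 6.08% and 5.93% of all probes were. Tnf, the inflammatory cytokine, had 60.7 untreated, 166 after 5-Aza-CdR, 19.0 with the control shRNA and 28.4 in the knockdown culture, with log2 ratios of 0.85 and 0.17. Nfkb2, a subunit of NF-κB, had 112, 258, 30.2 and 49.5, with 0.79 and 0.33. Among 20 genes of interferon signaling, 3 were higher with 5-Aza-CdR (Irf7, Isgf3g and Ifih1), where 0.917% of all probes were. With Dnmt1 knockdown 4 were higher (the same genes and Stat2), where 0.323% of all probes were. In both comparisons 0 were lower, and the list medians were 0.02 and 0.07. In the deposited intensities 5 and 6 of the 20 were higher, beside the same 6.08% and 5.93%, and 0 were lower. Irf7, a transcription factor of the interferon response, had 22.5 untreated, 226 after 5-Aza-CdR, 27.7 with the control shRNA and 199.8 in the knockdown culture. Its treated cultures lay above both controls, with log2 ratios of 1.87 and 1.91. Isgf3g (Irf9), a DNA-binding factor of the interferon response, had log2 ratios of 1.62 and 1.30. Ifih1, a sensor of double-stranded RNA, had 1.18 and 1.45. Stat2 had 0.70 and 1.03, past the limit in the second comparison only. Of 5 detected enzymes that cut or scavenge chemokines, 0 were called in either comparison. Xcl1, a chemokine outside the naming rule, had 1.25 untreated and 0.69 after 5-Aza-CdR and no value in the infected cultures.

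**Figure D4:**
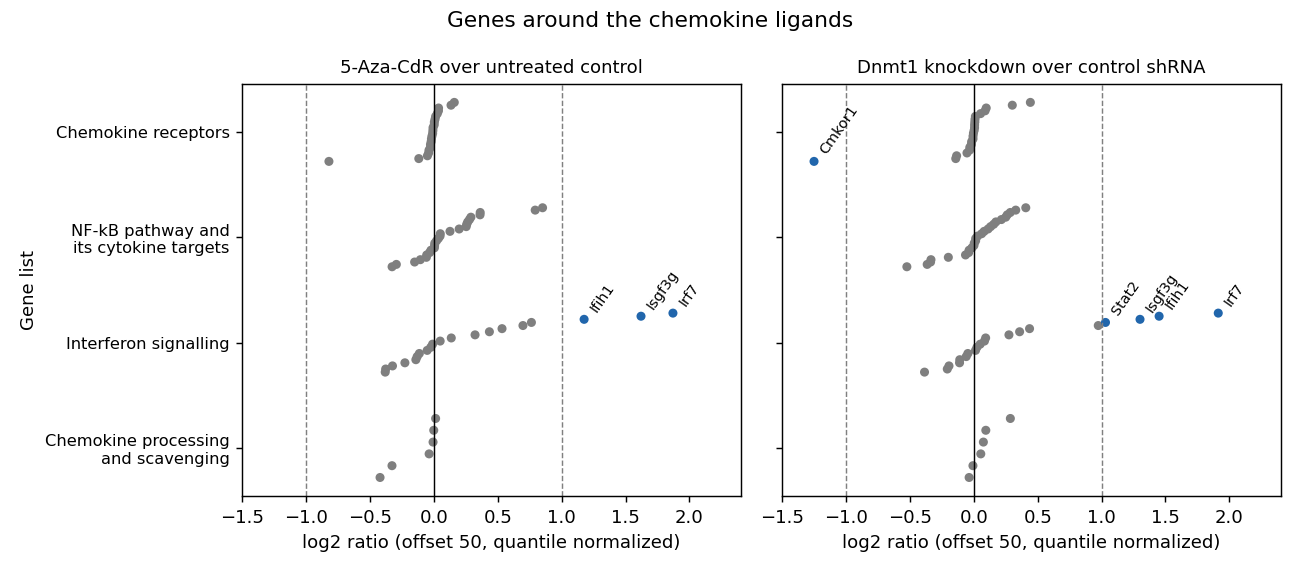
log2 ratio of each gene with a named probe in 4 lists (rows) for the 2 comparisons, blue where at least 2-fold and detected on the brighter array, gray otherwise, with dashed lines at 2-fold; the vertical spread within a row only separates the points. The called points of the interferon signaling genes lie between 1.03 and 1.91, and Cmkor1 lies at -1.25 with Dnmt1 knockdown.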

How the data were processed

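RNA from the 4 cultures was measured on Toray arrays, 1 per culture. The authors deposited spot signals for each array and a table of intensities in which, as recomputed here, the trimmed mean of the blank spots was subtracted, each array was scaled to a median of 25, and cells up to the detection limit (blank mean plus 2 SD) were emptied. Of the deposited intensities, at least 99.9947% per array lay within 1% of the recomputed ones. Scanner software is not given in the sources used here.

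limma 3.58.1 (R 4.3.3) was used for normexp correction of the spot signals (offset 50, no local background) and for quantile normalization across arrays; further steps used Python 3.11.15, numpy 2.4.6, pandas 2.3.3 and matplotlib 3.10.9. Detected meant above the blank mean plus 2 SD, after trimming 5% of blanks from either end. A probe was called at 2-fold. For a probe detected on 1 array of a pair, the bound is the brighter value over the higher of the dim value and the lowest detected one. Gene symbols came from the platform annotation (16631 probes with 1 symbol, 6842 with none), and a list gene was represented by its probe with the highest mean. Precision is limited by the number of arrays. Scripts were checked on simulated data with fold changes placed on bright probes only, so the check does not cover dim ones. Every probe of the set is accounted for, with per-array values for those detected on all arrays or called; of each list the called genes are named, and Tnf, Nfkb2 and other uncalled genes were named after their values had been seen. The members, lists and alternatives were chosen with earlier results of these data known, and Cxcl2 and Cxcl9 were added to the printed promoters after their values had been seen. Alternatives were the deposited intensities, plain blank subtraction (with quantile normalization and a common floor), median scaling, 75th percentile scaling and offset 16. Others were quantile normalization per pair, local background subtraction, other detection and fold limits and 1 probe per gene.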

Additional observations from a re-analysis of the deposited data

Results flagged for a closer look

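The log2 ratio of Cxcl5 had opposite signs in the 2 comparisons, with 0.39 after 5-Aza-CdR, which did not reach 2-fold, and -1.35 with Dnmt1 knockdown. The first was 0.04 with 75th percentile scaling, 0.05 with the local background subtracted and 2.20 in the deposited intensities. Each value rests on 1 array against 1 array, and the difference between the comparisons was not tested. The controls started from intensities of 4.47 and 69.8, and the part of that gap in the result was not tested.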

How the results depend on the processing

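No paired analysis was possible because each group had 1 array. No array could be left out for the same reason. With 5-Aza-CdR the count of 4 higher chemokine probes became 11 in the deposited intensities, 10 with plain blank subtraction, 1 with the local background subtracted and 1 at a 3-fold limit. Over all probes, the count of 145 higher became 961, 540, 142 and 42 in the same order of settings. The count of 0 lower chemokine probes became 2 in the deposited intensities, 2 with plain blank subtraction, and 1 each at an offset of 16, with 75th percentile scaling and at a 1.5-fold limit. Over all probes, the count of 96 lower became 332, 402, 171, 134 and 374 in that order. With Dnmt1 knockdown the count of 2 higher became 7 in the deposited intensities, 4 with plain blank subtraction, 1 with the local background subtracted and 1 at a 3-fold limit. Over all probes, the count of 47 higher became 863, 209, 186 and 20 in that order. The count of 1 lower chemokine probe became 2 with plain blank subtraction, 0 with the local background subtracted and 0 at a 3-fold limit, where the 21 lower of all probes became 259, 339 and 5. The count of 2 chemokine probes higher in both became 3, with Ccl5 added, in the deposited intensities and with plain blank subtraction. It became 1 with 75th percentile scaling, 0 with the local background subtracted and 0 at a 3-fold limit. Over all probes, the share of 0.187% higher in both became 1.09% in the deposited intensities. The median log2 ratio of 0.03 with 5-Aza-CdR became 0.52 in the deposited intensities and -0.26 with 75th percentile scaling, where the median of all probes was -0.34. With Dnmt1 knockdown it became 0.40 in the deposited intensities, where the median of all probes was 0.17 in each comparison. The call of the brighter Cxcl16 probe with 5-Aza-CdR turned to -0.34 with the local background subtracted. Fewer genes pass a higher limit by construction, and otherwise the cause was not tested. The dim probes limit the sizes given here, since 15 of 30 were not above the spots without probe on all arrays.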
